A study of Mus musculus with 8 samples.

Results

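The genes of cholesterol and fatty acid synthesis were examined in islets of β-CB1R+/+ and β-CB1R-/- mice. The set was a list of 32 genes named by pathway. It was read as a sterol branch of 22 genes and a fatty acid branch of 10 genes. Each gene was represented by its brightest compared probe, out of 16977 genes that had a compared probe. All 32 genes were measured, and 31 of them were well above background on all 8 arrays. The exception was Fads2, which was above background on 3 of the 4 β-CB1R+/+ arrays and on 2 of the 4 β-CB1R-/- arrays.

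Islets were hand-picked after collagenase digestion from male C57BL/6 mice on standard diet, 4 labelled CB1 WT and 3 labelled CB1 KO, and total RNA was hybridised to one-colour mouse expression arrays. β-CB1R-/- replicate 2 was hybridised to 2 repeat arrays, which were averaged and counted as 1 mouse. Per the study's methods, β-CB1R-/- mice were Cnr1 flox/flox:MIP-Cre/ERT+ and β-CB1R+/+ mice carried the floxed Cnr1 alleles without the Cre transgene, and mice of both genotypes received tamoxifen. MIP-Cre/ERT is a tamoxifen-activated Cre recombinase under the mouse insulin promoter, which is active in beta cells. Only the β-CB1R-/- mice carried this transgene, so the loss of CB1R, the cannabinoid 1 receptor, and the presence of the transgene cannot be told apart. The growth protocol in the labels speaks of a global CB1 receptor knockout, whereas the series' title and design name a beta cell-specific one. The age of the array mice is not given in the sources used here. All arrays lay on 1 slide and shared 1 scan date, with the β-CB1R+/+ and the β-CB1R-/- arrays in separate columns of the slide, so the position of an array on the slide cannot be separated from genotype.

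Cells make cholesterol from acetyl-CoA through the mevalonate pathway, a chain of enzymes that runs to lanosterol and then through a series of demethylations, reductions and isomerisations to cholesterol. The transcription factor SREBP-2, encoded by Srebf2, drives most of these genes, and SREBP-1, encoded by Srebf1, drives mainly those that build and desaturate fatty acids. SCAP carries the SREBP precursors out of the endoplasmic reticulum for cleavage, and the INSIG proteins hold them there when sterols are plentiful. In beta cells the fatty acid branch consumes citrate derived from glucose, and malonyl-CoA made by acetyl-CoA carboxylase restrains the entry of fatty acids into mitochondria.

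SREBPs bind sterol regulatory elements, usually near a CCAAT box bound by the factor NF-Y, so the promoter windows of 5 genes described below are shown, chosen to include genes that were lower and genes that were higher. Windows ran from 250 bases before to 50 after the transcription start in RefSeq (GRCm38.p6), and 25 of the 32 genes had one, which leaves out Fdps, Fdft1, Sqle, Stard4, Scd1, Scd2 and Fads1. The windows are those of Hmgcs1 (chr13:119690101-119690400, plus strand), the first enzyme committed to the mevalonate pathway, and of the regulators Insig1 (chr5:28071162-28071461, plus strand) and Srebf2 (chr15:82147019-82147318, plus strand). They are followed by Dhcr7 (chr7:143829964-143830263, plus strand), the last sterol reductase, and Acacb (chr5:114165268-114165567, plus strand), the mitochondrial acetyl-CoA carboxylase. Of the 3 Dhcr7 windows the one with CCAAT letters is shown. Capitals mark matches on either strand to TCACNCCAC (a sterol regulatory element), CCAAT (reverse complement ATTGG) and CACGTG (an E-box).
Hmgcs1: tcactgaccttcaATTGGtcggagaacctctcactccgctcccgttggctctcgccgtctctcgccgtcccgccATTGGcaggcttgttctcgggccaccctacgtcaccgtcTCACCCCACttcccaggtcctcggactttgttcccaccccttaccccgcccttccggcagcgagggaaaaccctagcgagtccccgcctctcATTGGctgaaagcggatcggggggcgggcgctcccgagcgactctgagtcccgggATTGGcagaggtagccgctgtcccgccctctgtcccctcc
Insig1: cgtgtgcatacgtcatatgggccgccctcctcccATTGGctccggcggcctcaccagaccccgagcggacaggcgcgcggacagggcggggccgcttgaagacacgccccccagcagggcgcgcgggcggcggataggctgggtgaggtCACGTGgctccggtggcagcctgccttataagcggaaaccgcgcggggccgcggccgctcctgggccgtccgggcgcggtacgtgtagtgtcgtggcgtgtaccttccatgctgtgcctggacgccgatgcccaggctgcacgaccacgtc
Srebf2: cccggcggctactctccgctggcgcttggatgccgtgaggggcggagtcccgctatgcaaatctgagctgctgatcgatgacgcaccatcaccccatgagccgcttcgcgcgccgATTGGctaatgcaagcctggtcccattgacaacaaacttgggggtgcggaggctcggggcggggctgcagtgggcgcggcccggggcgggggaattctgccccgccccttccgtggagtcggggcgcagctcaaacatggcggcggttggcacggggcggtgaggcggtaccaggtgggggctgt
Dhcr7: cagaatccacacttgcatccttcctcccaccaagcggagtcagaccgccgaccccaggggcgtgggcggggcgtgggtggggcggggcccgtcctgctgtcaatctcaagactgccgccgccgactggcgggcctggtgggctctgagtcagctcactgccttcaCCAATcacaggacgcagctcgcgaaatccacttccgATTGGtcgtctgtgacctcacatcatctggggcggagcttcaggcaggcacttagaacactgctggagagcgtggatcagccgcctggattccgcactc
Acacb: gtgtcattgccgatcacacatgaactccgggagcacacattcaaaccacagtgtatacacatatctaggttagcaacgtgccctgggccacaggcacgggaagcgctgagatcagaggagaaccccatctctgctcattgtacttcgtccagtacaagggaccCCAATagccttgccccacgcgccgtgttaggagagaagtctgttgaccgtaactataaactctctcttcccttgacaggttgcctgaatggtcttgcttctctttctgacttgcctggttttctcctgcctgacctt
Some genes have more than 1 window, so shares are given over windows. The CCAAT letters were found in 17 of 24 sterol branch windows and 5 of 9 fatty acid branch windows, against 37.4% of all 32851 windows in the table. The CACGTG letters were found in 6 of the 24 sterol branch windows (of Dhcr7, Hsd17b7, Insig1, Sc5d and Scap). They were found in 0 of the 9 fatty acid branch windows and in 7.15% of all windows. The TCACNCCAC letters were found in the Hmgcs1 window alone among those of the 25 genes, and in 1.24% of all windows. A match describes the letters and not a bound site.

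Values are given below as log2 intensity after subtraction of the log2 of the array's 75th percentile, so a value of 0 is the brightness of the upper quartile spot. Levels of different genes come from different probes and were not compared. In these whole islets fewer cells of a type and less RNA per cell cannot be told apart. Cnr1, which encodes CB1R, measured −1.11, −0.77, −0.53 and −0.02 in the 4 β-CB1R+/+ mice and −2.30, −3.13 and −2.28 in the 3 β-CB1R-/- mice. It was lower in each β-CB1R-/- mouse than in every β-CB1R+/+ mouse, and was above background on 3 of the 4 β-CB1R-/- arrays. The difference was −1.97 ± 0.33 (SE), with an exact permutation p of 0.0286, the smallest that the 35 splits of the mice allow, and a limma adjusted p of 0.193 over 39188 probes. Where the probe lies relative to the floxed part of Cnr1 is not given in the sources used here. The markers of beta cells (8 of 8 genes) and alpha cells (4 of 4) were above background on all arrays, and so were those of acinar cells (12 of 12).

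No gene of either branch passed limma's adjusted threshold of 0.05, and the adjusted p of each was 0.999. Over all probes, 0.110% passed. At an unadjusted p under 0.05, limma called no sterol branch gene and 2 of the 10 fatty acid branch genes, Scd2 (lower in β-CB1R-/- mice) and Fads1 (higher), against 3.89% of all genes. The methods' t test called none after adjustment, and Dhcr7 and Fads1 (both higher) without it, against 4.36% of all genes. The groups did not overlap in 3 of the 32 genes, Scd2, Fads1 and Dhcr7, against 4.82% of all genes. Of the 22 sterol branch genes 18 had a mean below that of the β-CB1R+/+ mice, with a median difference of −0.26 on the log2 scale. Of the 10 fatty acid branch genes 6 were lower, with a median of −0.092. Over all genes 55.7% were lower, with a median of −0.039.

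**Figure D1:**
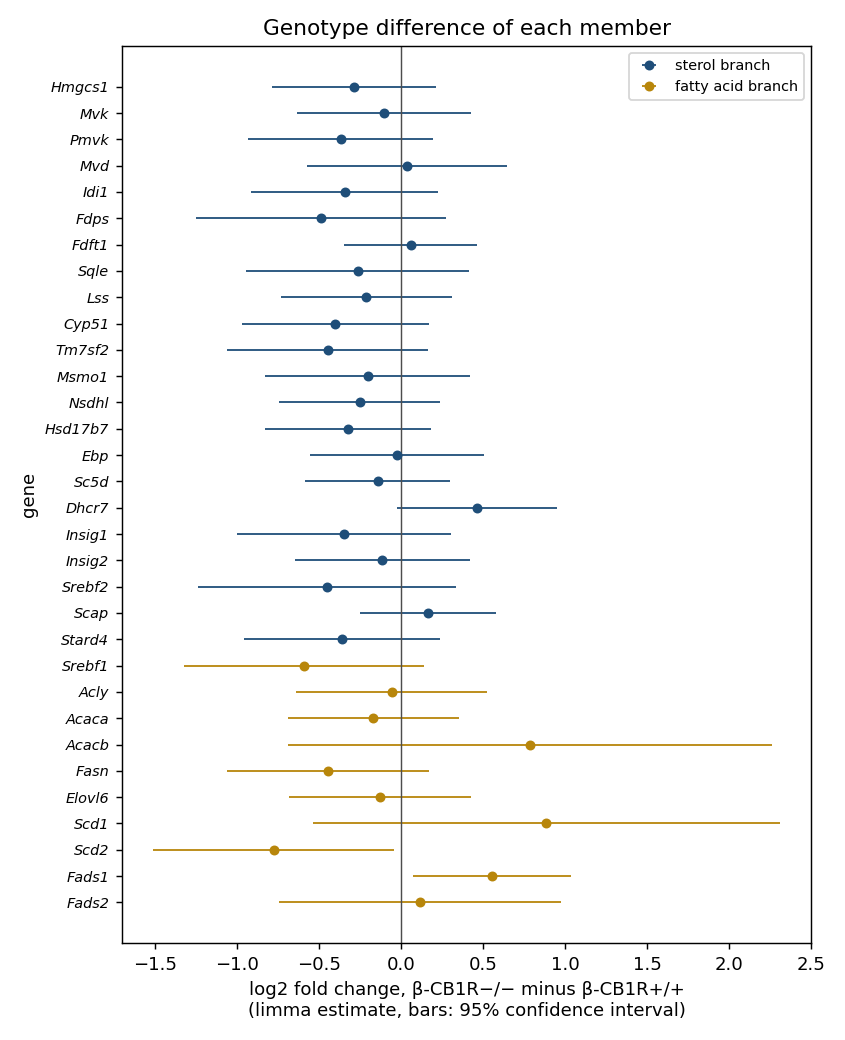
The log2 fold change of each of the 32 genes (x axis, β-CB1R-/- minus β-CB1R+/+, limma estimate with its 95% confidence interval, 4 against 3 mice) is plotted by gene in pathway order. Most sterol branch estimates lie left of 0 with intervals that cross it, and only the intervals of Scd2 and Fads1 lie on one side of 0.

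The plot of fold changes shows how wide the intervals were with 4 and 3 mice. The 95% intervals of the sterol branch genes reached from −1.25 to 0.95, and those of the fatty acid branch genes from −1.51 to 2.31. Standard errors ran from 0.18 to 0.34 in the sterol branch and from 0.21 to 0.64 in the fatty acid branch. The β-CB1R-/- mice were more spread than the β-CB1R+/+ mice in 17 of the 22 sterol branch genes and in 7 of the 10 fatty acid branch genes, against 59.7% of all genes.

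Hmgcs1, Idi1 and Fdps, of the early steps to farnesyl diphosphate, were lower in 2 of the 3 β-CB1R-/- mice and not in the third. Hmgcs1, which makes HMG-CoA for the mevalonate pathway, measured 3.28, 3.16, 3.13 and 3.09 in β-CB1R+/+ mice and 2.76, 2.60 and 3.29 in β-CB1R-/- replicates 1, 2 and 3. Replicates 1 and 2 thus lay below every β-CB1R+/+ mouse and replicate 3 above them all, and the mean difference was −0.29 ± 0.22 (SE). Idi1, the isopentenyl diphosphate isomerase, measured 1.37, 1.38, 1.00 and 1.10 in β-CB1R+/+ mice and 0.73, 0.54 and 1.34 in β-CB1R-/- mice, a difference of −0.34 ± 0.25. Its order among the β-CB1R-/- mice was that of Hmgcs1. Fdps, the farnesyl diphosphate synthase, measured 3.52, 3.65, 3.34 and 3.43 in β-CB1R+/+ mice and 3.20, 2.18 and 3.60 in β-CB1R-/- mice. Replicate 2 was far below all the other mice for this gene, and the difference of −0.49 ± 0.33 had an exact permutation p of 0.200. Without that mouse the difference was −0.083.

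Of the enzymes between these steps, both kinases had β-CB1R-/- replicates 1 and 2 below every β-CB1R+/+ mouse and the decarboxylase did not. Pmvk, phosphomevalonate kinase, measured 3.52, 3.68, 3.34 and 3.22 in β-CB1R+/+ mice and 2.65, 3.10 and 3.46 in β-CB1R-/- mice, a difference of −0.37 ± 0.24. A dimmer probe of Pmvk differed by −0.38. Mvk, mevalonate kinase, had its highest value of all, 2.36, in β-CB1R-/- replicate 3 and its lowest, 1.70, in β-CB1R-/- replicate 2, and its groups differed by −0.10. Mvd, the mevalonate diphosphate decarboxylase, differed by 0.04, and its highest and lowest mice were both β-CB1R+/+, at −0.82 and −1.80.

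Among the squalene and lanosterol steps, Sqle divided in the same manner. Sqle, squalene epoxidase, measured 4.44, 4.90, 4.42 and 4.25 in β-CB1R+/+ mice and 3.92, 3.93 and 4.86 in β-CB1R-/- mice. The first 2 β-CB1R-/- values were close together and below every β-CB1R+/+ mouse, and the third was near the highest. The difference between groups was −0.26. Fdft1, squalene synthase, was nearly flat, at 1.38, 1.39, 1.42 and 1.33 against 1.25, 1.51 and 1.56, a difference of 0.06, and on this gene the probes disagreed. A dimmer Fdft1 probe, above background on 3 of the 4 β-CB1R-/- arrays, was lower in every β-CB1R-/- mouse than in any β-CB1R+/+ mouse, with a difference of −0.60. Lss, lanosterol synthase, differed by −0.21, with β-CB1R+/+ mice between −1.16 and −0.46 and β-CB1R-/- mice between −1.25 and −0.86.

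Most enzymes that turn lanosterol into cholesterol were low in β-CB1R-/- replicates 1 and 2. Cyp51, the lanosterol demethylase, measured −1.57, −1.10, −1.48 and −1.53 in β-CB1R+/+ mice and −2.06, −2.04 and −1.35 in β-CB1R-/- mice, a difference of −0.40 ± 0.25 with an exact permutation p of 0.200. Tm7sf2, a sterol reductase, measured 1.52, 2.17, 1.76 and 1.61 in β-CB1R+/+ mice and 1.22, 0.97 and 1.78 in β-CB1R-/- mice, a difference of −0.45 ± 0.26 with the same exact p of 0.200. In both genes replicate 3 was within the range of the β-CB1R+/+ mice. Msmo1, the sterol methyl oxidase, measured 3.84, 4.07, 3.70 and 3.63 in β-CB1R+/+ mice and 3.33, 3.29 and 4.20 in β-CB1R-/- mice, so that replicate 3 was the highest of the 7 mice and the mean difference only −0.20. A dimmer Tm7sf2 probe differed by −0.17. Nsdhl and Hsd17b7, which complete the demethylation, differed by −0.25 and −0.32, and both had replicates 1 and 2 at the bottom. Dimmer probes of Nsdhl and Hsd17b7, each above background on 3 of the 4 arrays of either genotype, differed by −0.14 and −0.03. The lowest mouse on the dimmer probe was β-CB1R+/+ replicate 1 for Nsdhl and β-CB1R+/+ replicate 2 for Hsd17b7. Ebp, the sterol isomerase, and Sc5d, the sterol desaturase, differed by −0.02 and −0.14.

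Dhcr7, the reductase of the last step, ran against most of the sterol branch. It measured −0.60, −0.52, −0.74 and −0.63 in β-CB1R+/+ mice and −0.43, −0.26 and 0.21 in β-CB1R-/- mice. Every β-CB1R-/- mouse was above every β-CB1R+/+ mouse. The difference was 0.46 ± 0.21 with an exact permutation p of 0.0286, but limma's unadjusted p was 0.0591. Without β-CB1R-/- replicate 3 the difference was 0.28.

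Among the regulators, both SREBP genes and Insig1 had their lowest value in β-CB1R-/- replicate 2. Srebf2 measured −0.63, −0.13, −0.16 and −0.15 in β-CB1R+/+ mice and −0.51, −1.52 and −0.12 in β-CB1R-/- mice, and the difference of −0.45 ± 0.34 rested on that mouse. Without it the difference was −0.047. A dimmer Srebf2 probe, above background on 2 of the 4 arrays of either genotype, differed by −0.09. Insig1, itself a sterol-responsive target of SREBP-2, measured 0.17, 0.58, 0.81 and 0.22 in β-CB1R+/+ mice and 0.13, −0.39 and 0.56 in β-CB1R-/- mice, a difference of −0.35. The groups overlapped through replicate 3. Insig2 differed by −0.11, and Scap by 0.17. Scap measured 4.03, 4.22 and 3.85 in β-CB1R-/- mice against 3.80 to 3.91 in β-CB1R+/+ mice, so that its order among the β-CB1R-/- mice was the reverse of that of Hmgcs1. Stard4, a cholesterol carrier protein, measured 0.11, 0.22, 0.15 and 0.11 in β-CB1R+/+ mice and −0.16, −0.76 and 0.28 in β-CB1R-/- mice, a difference of −0.36. Its dimmer probe, above background on 3 of the 4 β-CB1R-/- arrays, differed by −0.58 and was lower in all 3 β-CB1R-/- mice than in any β-CB1R+/+ mouse.

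**Figure D2:**
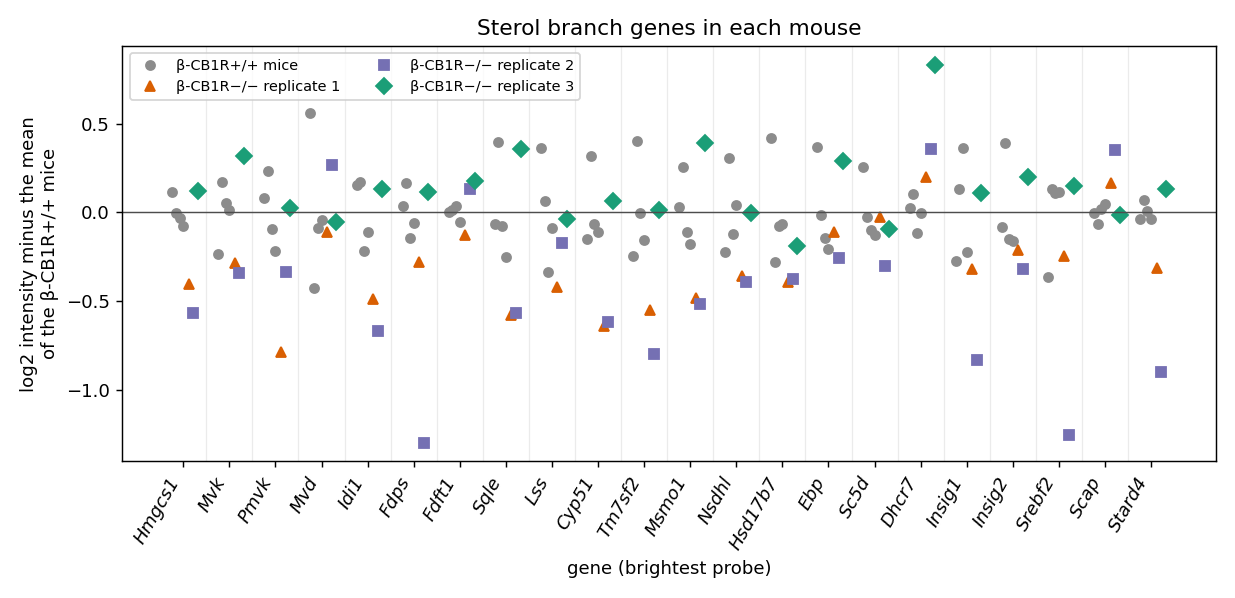
The log2 intensity of the 22 sterol branch genes in each mouse, minus the mean of the β-CB1R+/+ mice (y axis), is plotted by gene, with grey circles for the 4 β-CB1R+/+ mice and a coloured symbol for each β-CB1R-/- mouse. Replicates 1 and 2 lie below every β-CB1R+/+ mouse in 14 genes, while replicate 3 lies above both of them in 19.

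The plot of sterol branch genes by mouse shows a division within the β-CB1R-/- group that was noticed in these values and is given without a test. β-CB1R-/- replicates 1 and 2 were both below every β-CB1R+/+ mouse in 14 of 22 sterol branch genes and in 5 of 10 fatty acid branch genes, against 18.9% of all genes. Replicate 3 was above both other β-CB1R-/- mice in 19 of 22 sterol branch genes and in 6 of 10 fatty acid branch genes, against 44.3% of all genes. The median of the centred sterol branch values was 0.08, 0.25, 0.02 and −0.01 in β-CB1R+/+ replicates 1 to 4, and −0.21, −0.29 and 0.24 in β-CB1R-/- replicates 1 to 3. The mouse with the lowest value was β-CB1R-/- replicate 2 for 13 of the sterol branch genes and β-CB1R-/- replicate 1 for 6. The highest was β-CB1R+/+ replicate 2 for 8 genes and β-CB1R-/- replicate 3 for 7. Shares of all genes are not given for these lowest and highest mice, so the counts cannot be read as particular to the branch.

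The repeat arrays of β-CB1R-/- replicate 2 gave the same picture. On each of them 17 of the 22 sterol branch genes were below every β-CB1R+/+ mouse. The share of all genes under that rule is not given here, so the count cannot be read as particular to the branch. The repeat arrays differed by a median of 0.099 over the 32 genes and by at most 0.57 (Fads2). The array of replicate 3 had the highest 75th percentile intensity of the 8, at 362 against 235 to 289 on the others, and the part of this in the result was not tested. Without replicate 3 the median difference of the sterol branch was −0.44. In that fit the unadjusted limma p was under 0.05 for 9 of 22 sterol and 4 of 10 fatty acid branch genes. The share of all genes was 10.1%, and no gene of either branch passed the adjusted threshold. Replicate 3 had already stood apart in these same values, so that fit adds no separate support for the division. With any other mouse left out, at most 1 sterol branch gene had such a p (Dhcr7, without replicate 1). Without replicate 2 the sterol branch median was −0.086.

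The fatty acid branch held genes with opposite orders in the same mice. Srebf1, the gene of SREBP-1, measured 0.49, 0.68, 0.81 and 0.41 in β-CB1R+/+ mice and 0.09, −0.70 and 0.63 in β-CB1R-/- mice. Replicates 1 and 2 lay below every β-CB1R+/+ mouse, and the difference was −0.59 ± 0.32 with an exact permutation p of 0.114. Without replicate 2 the difference was −0.23. Acly, ATP citrate lyase, which supplies cytosolic acetyl-CoA, measured 7.14, 7.70, 7.41 and 7.30 in β-CB1R+/+ mice and 7.08, 7.11 and 7.79 in β-CB1R-/- mice, a difference of −0.06. Acaca, the cytosolic acetyl-CoA carboxylase, measured 2.43, 2.59, 2.45 and 2.33 in β-CB1R+/+ mice and 2.05, 2.06 and 2.73 in β-CB1R-/- mice, a difference of −0.17. For both enzymes replicate 3 was the highest of all 7 mice and replicates 1 and 2 the lowest. Fasn, which assembles palmitate, measured −0.24, −0.80, −1.24 and −1.13 in β-CB1R+/+ mice and −1.32, −1.35 and −1.23 in β-CB1R-/- mice. Here all 3 β-CB1R-/- mice were close together, and the difference of −0.44 ± 0.27 came with a wide spread in the β-CB1R+/+ mice. Elovl6, which elongates palmitate, differed by −0.13.

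Acacb and Scd1 had the opposite order. Acacb, the mitochondrial acetyl-CoA carboxylase, measured 1.30, −0.34, 1.19 and 1.92 in β-CB1R+/+ mice and 2.51, 2.37 and 0.53 in β-CB1R-/- mice. Scd1, a stearoyl-CoA desaturase, measured −0.79, −2.28, −1.21 and −0.84 in β-CB1R+/+ mice and −0.20, 0.80 and −1.78 in β-CB1R-/- mice. For both genes replicates 1 and 2 were above every β-CB1R+/+ mouse, while replicate 3 and β-CB1R+/+ replicate 2 were the lowest. The differences were 0.79 ± 0.64 and 0.89 ± 0.62, with exact permutation p of 0.400 and 0.314. With 1 mouse left out they ranged from 0.33 (without β-CB1R+/+ replicate 2) to 1.42 (without β-CB1R-/- replicate 3) for Acacb, and from 0.29 (without β-CB1R-/- replicate 2) to 1.58 (without β-CB1R-/- replicate 3) for Scd1. A second Acacb probe, above background on 3 of the 4 β-CB1R+/+ arrays, differed by 0.68.

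Scd2 had the largest difference of the genes that were lower. This desaturase, which like Scd1 makes monounsaturated fatty acids, measured 3.96, 4.17, 4.10 and 4.10 in β-CB1R+/+ mice and 3.45, 2.54 and 3.93 in β-CB1R-/- mice. All 3 β-CB1R-/- mice were below all β-CB1R+/+ mice, replicate 3 by a small margin. The difference was −0.78 ± 0.32 (95% confidence interval −1.51 to −0.04), with an exact permutation p of 0.0286 and an unadjusted limma p of 0.0408. Without replicate 2 the difference was −0.39, and the unadjusted p was above 0.05, at 0.0548 to 0.132, when any mouse but replicate 3 was left out. Fads1, a desaturase of polyunsaturated fatty acids, measured −0.01, 0.19, 0.02 and 0.52 in β-CB1R+/+ mice and 0.83, 0.54 and 0.83 in β-CB1R-/- mice. Every β-CB1R-/- mouse was above every β-CB1R+/+ mouse, replicate 2 by a small margin. The difference of means was 0.55 ± 0.21 (95% confidence interval 0.07 to 1.03), with an exact permutation p of 0.0571 and an unadjusted limma p of 0.0294. That p was above 0.05, at 0.0517 to 0.0829, with 5 of the 7 mice left out in turn, all but β-CB1R+/+ replicate 4 and β-CB1R-/- replicate 2. Fads2, the companion desaturase, was dim, as given above, and differed by 0.12.

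**Figure D3:**
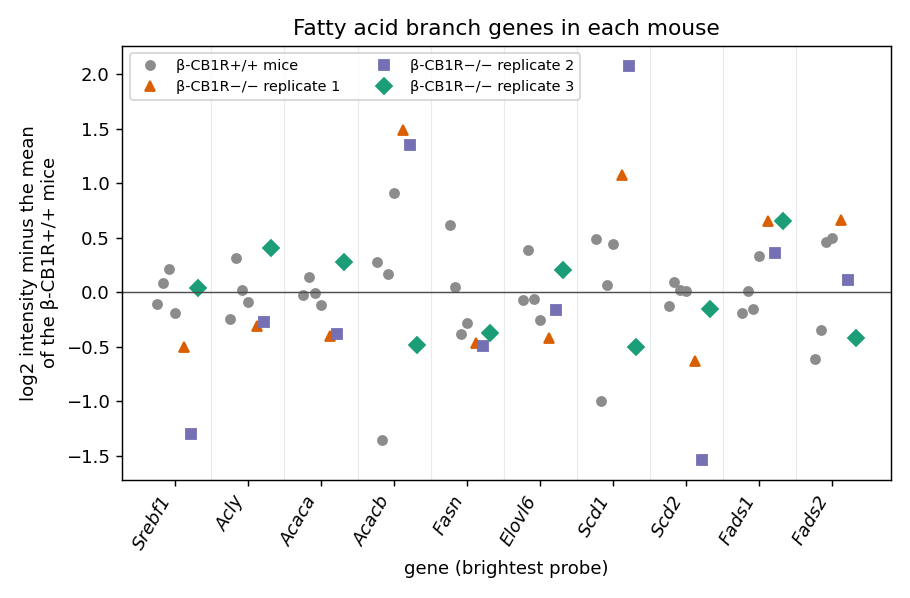
The log2 intensity of the 10 fatty acid branch genes in each mouse, minus the mean of the β-CB1R+/+ mice (y axis), is plotted by gene with the same symbols as the plot of sterol branch genes. Scd2 is lower and Fads1 higher in all 3 β-CB1R-/- mice, while in Acacb and Scd1 replicates 1 and 2 lie above every β-CB1R+/+ mouse and replicate 3 does not.

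Markers of islet and exocrine cells followed these orders in part. The median of the 8 beta cell markers, centred in the same way, was 0.15, 0.35, 0.19 and −0.10 in β-CB1R+/+ mice and −0.31, −0.37 and 0.23 in β-CB1R-/- mice, so that it too was lowest in β-CB1R-/- replicates 1 and 2. Their summed intensity, as a multiple of the 75th percentile, ran from 3742 to 5021 in β-CB1R+/+ mice and from 2987 to 4562 in β-CB1R-/- mice. The bright hormone genes make up most of this sum, which was lowest in replicate 3 and so did not follow the order of the median. None of the 8 passed the adjusted threshold by limma or had an unadjusted p under 0.05, 7 had a lower mean in β-CB1R-/- mice, and the median difference was −0.17. The list was not uniform. Slc2a2, the beta cell glucose transporter, measured 4.61, 6.05, 5.65 and 5.24 in β-CB1R+/+ mice and 4.66, 3.97 and 5.30 in β-CB1R-/- mice, and Ucn3, Nkx6-1, Mafa and Pdx1 were likewise highest in replicate 3 among the β-CB1R-/- mice. The hormone genes Ins1, Ins2 and Iapp were lowest there. The part of these markers in the sterol branch order was not tested.

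The 4 alpha cell markers had centred medians of 0.31, 0.17, 0.27 and −0.04 in β-CB1R+/+ mice and −0.26, −0.63 and 0.05 in β-CB1R-/- mice. One of them, Irx2, had an unadjusted limma p under 0.05 (0.0286), against 3.89% of all genes, with a difference of −0.75 and overlapping groups.

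The acinar markers, like Acacb and Scd1, were on the median highest in β-CB1R-/- replicates 1 and 2 and lowest in β-CB1R-/- replicate 3 and β-CB1R+/+ replicate 2, though not in the same order of mice, and Cpa1 was highest in β-CB1R+/+ replicate 2. Their centred median was 0.36, −0.73, 0.09 and 0.06 in β-CB1R+/+ mice and 0.45, 0.40 and −0.53 in β-CB1R-/- mice. Their summed intensity ran from 9922 to 18583 in β-CB1R+/+ mice and from 10135 to 19975 in β-CB1R-/- mice, and none of the 12 passed the adjusted threshold or an unadjusted p under 0.05 by limma. The duct cell markers (6 of 6) had centred medians of −0.07, −1.04, 0.06 and 0.66 in β-CB1R+/+ mice and 0.63, 0.13 and −0.41 in β-CB1R-/- mice. The part of acinar, duct or adipocyte RNA in the values of Acacb and Scd1 was not tested. The macrophage markers (6 of 6, median difference 0.50) and the stellate cell and fibroblast markers (7 of 7, median difference 1.01) all had a higher mean in β-CB1R-/- mice, none passed the adjusted threshold or an unadjusted p under 0.05 by limma, and their part in the results was not tested. The macrophage centred medians were −0.38, −0.55, −0.10 and 0.15 in β-CB1R+/+ mice and −0.21, 0.60 and 0.42 in β-CB1R-/- mice. Those of the stellate cell and fibroblast list were −0.94, −1.88, −0.78 and 2.04 against 0.53, 1.00 and 0.28. β-CB1R+/+ replicate 4 was the highest mouse for all 7 genes of that list. Of the 6 adipocyte markers 3 were compared and Plin1, Cidec and Lep were too dim, and the centred medians of the 3 were 0.51, −0.62, −0.25 and 0.38 in β-CB1R+/+ mice and 0.77, 0.11 and −0.09 in β-CB1R-/- mice. The immediate-early genes, which are induced during tissue handling, had another order. Fos measured −0.82, −1.59, 6.31 and 5.34 in β-CB1R+/+ mice and 0.75, 5.84 and −0.71 in β-CB1R-/- mice. Their part in the results was not tested.

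**Figure D4:**
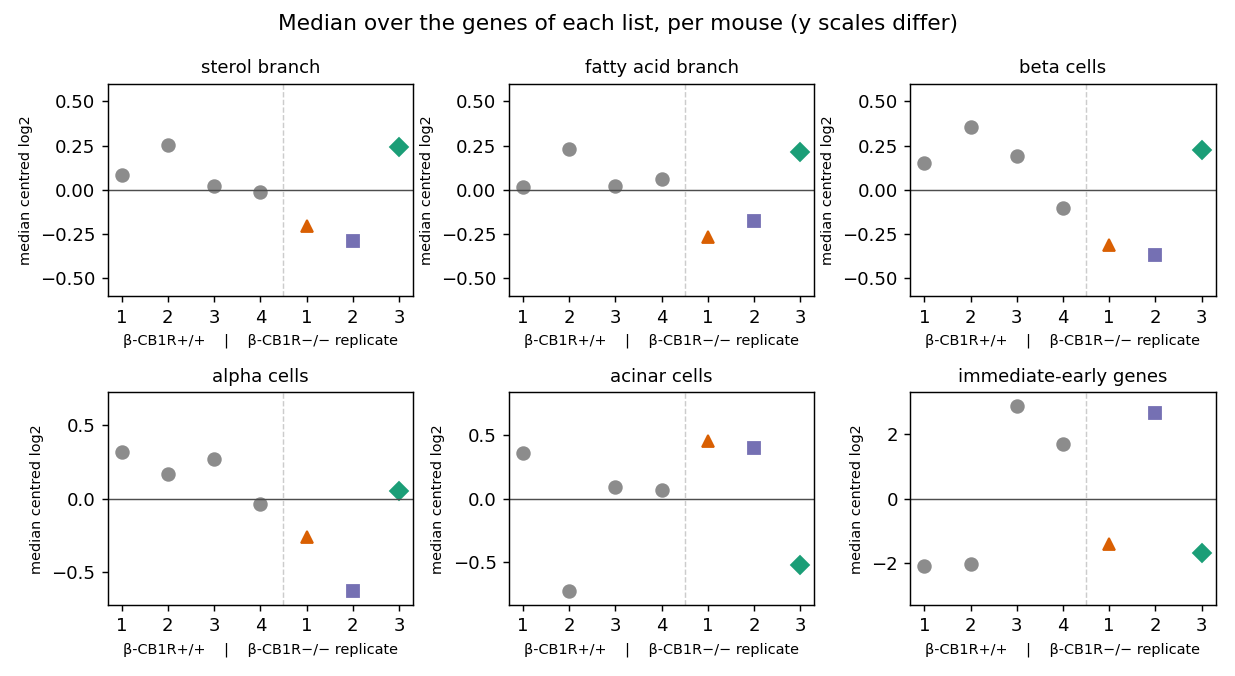
The median of the centred log2 values (y axis, scale differing by panel) over the genes of each list is plotted for the 7 mice, with β-CB1R+/+ replicates 1 to 4 left of the dashed line and β-CB1R-/- replicates 1 to 3 right of it. The sterol, fatty acid, beta cell and alpha cell panels are lowest in β-CB1R-/- replicates 1 and 2, and the acinar panel is highest there.

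Genes around these branches were examined as lists, with the same probe rule. Among 10 other genes of SREBP processing and degradation 3 had a higher and 7 a lower mean in β-CB1R-/- mice, with a median of −0.042, and among 12 genes of isoprenoid and late sterol synthesis 5 were higher and 7 lower, with a median of −0.12. Among 12 genes that supply acetyl-CoA, citrate and NADPH 5 were higher and 7 lower, with a median of −0.045. Mlxipl, the glucose-sensing factor ChREBP that drives lipogenic genes, was counted in that list. It measured 6.06, 7.01, 6.40 and 6.21 in β-CB1R+/+ mice and 5.23, 5.61 and 6.20 in β-CB1R-/- mice, a difference of −0.74 ± 0.32 with overlapping groups. No gene of these 3 lists passed limma's adjusted threshold, and Mlxipl alone of their 34 genes had an unadjusted p under 0.05, against 3.89% of all genes.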

How the data were processed

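The authors hybridised islet RNA of 4 WT and 3 CB1_KO mice to 8 one-colour Agilent arrays. They deposited, for each spot, the processed intensity given by Feature Extraction 11.5.1.1, which is background subtracted and not scaled between arrays. They also deposited a Z score per spot, which matches the standardised log10 intensity of the array to within 0.00503. Here log2 intensities of 59305 spots (control spots left out) were taken and each array's 75th percentile was subtracted. Spots flagged as population outliers or non-uniform were dropped, and none was saturated. Spots of a probe, and the repeat arrays of CB1_KO replicate 2, were averaged. A probe was compared if at least 3 of the 7 mice were well above background for it (39188 of 55681 probes). The genotype difference was fitted in R 4.3.3 with limma 3.58.1 (moderated statistics, both directions), and p-values were adjusted by Benjamini-Hochberg over all compared probes, with 0.05 as the threshold. Exact permutation tests of the difference in means, two-sided, ran over the 35 splits of the mice. The number of arrays limits the precision. The labels do not state how mice relate to cages or litters, so p-values measure only the spread between these samples.

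Probe accessions were matched to RefSeq for symbols (28026 probes). The arrays' header names another genome build, so no probe coordinates are given. Each gene is shown by its brightest compared probe, and 12 members had 13 further compared probes. Centred values are a gene's value minus its mean over the 7 mice, except where a plot names the β-CB1R+/+ mean. Genes named are all 32 members, and from the related lists those past the adjusted threshold and at most 3 per list with groups that do not overlap. Values in every mouse are given for members with groups that do not overlap, an unadjusted p under 0.05 or one of the 5 largest differences of their branch. Cnr1 and Fos were named as checks. Mlxipl, the cell type markers and the values of further members in every mouse were chosen after they were seen. The members and the lists were chosen with earlier results of these data known. The procedure was tested on simulated data. The main fit did not pair mice by replicate number. Correlations of deviations were 0.42, −0.27 and −0.06 for numbers 1 to 3, which cannot settle whether the numbers paired the mice.

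The alternatives were a normexp background (offset 50), quantile normalisation, the deposited Z scores, an intensity trend, each mouse left out, either of the repeat arrays by itself, no filter on dim probes, a stricter filter that asks for all arrays, a block for the replicate number, the mean of a gene's probes, and the methods' t test.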

Additional observations from a re-analysis of the deposited data

Results flagged for a closer look

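Insig2 in β-CB1R+/+ replicate 2 measured 2.88, far above the other β-CB1R+/+ mice at 2.33 to 2.41. Srebf2 in β-CB1R+/+ replicate 1 measured −0.63, below the other β-CB1R+/+ mice at −0.16 to −0.13. Both stood apart by Dixon's criterion among the 4 β-CB1R+/+ mice. The criterion was applied to 32 genes, of which chance would mark about 1.6.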

How the results depend on the processing

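The number of probes past the adjusted threshold was 43. It was 23 with no filter on dim probes, 24 with a filter on all arrays, 0 with the replicate number as a block, 0 by the methods' t test with adjustment and 1412 without it. With 1 mouse left out it ranged from 0 (without β-CB1R-/- replicate 2) to 42 (without β-CB1R-/- replicate 1), with 5 without β-CB1R-/- replicate 3 and 22, 15, 5 and 19 without β-CB1R+/+ replicates 1 to 4. No member of either branch passed under any adjusted alternative, and the unadjusted t test called 1 sterol and 1 fatty acid branch gene. Under the replicate block the medians were −0.29 (sterol) and −0.15 (fatty acid), no member passed the adjusted threshold, and Scd2's unadjusted p was 0.0732. The sterol branch median stayed below 0 under all 17 alternatives, from −0.44 without β-CB1R-/- replicate 3 to −0.086 without β-CB1R-/- replicate 2. The fatty acid branch median ranged from −0.29 without β-CB1R-/- replicate 3 to 0.0028 without β-CB1R+/+ replicate 2.

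Small differences changed sign: Mvk with normexp (0.27), Mvd with quantile normalisation (−0.020) and with repeat array 1 alone (−0.052), Ebp with quantile normalisation (0.018) and Fdft1 with the mean of its probes (−0.27). The cause was not tested. With 1 mouse left out Ebp ranged from −0.18 to 0.099, Fads2 ranged from −0.15 to 0.39, Mvd ranged from −0.11 to 0.22, Insig2 ranged from −0.27 to 0.019, Acly ranged from −0.29 to 0.068, Elovl6 ranged from −0.29 to 0.021 and Mvk ranged from −0.31 to 0.017.
With 1 mouse left out, 31 of the 32 members (all but Fads1) moved by over 1.5 times or changed sign at least once, 22 without β-CB1R-/- replicate 2 and 25 without β-CB1R-/- replicate 3. Scd2, Fads1 and Dhcr7 kept their direction under all 17 alternatives, from −1.08 to −0.39, 0.46 to 0.66 and 0.28 to 0.60. Slide and scan date could not be fitted as blocks, with 1 of each. Signal over background limits Fads2 most.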

Other observations

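Further lists of genes that use, store or export the products of these branches were examined with the same probe rule. Of 21 fatty acid oxidation genes 16 had a higher and 5 a lower mean, with a median difference of 0.25 against −0.039 over all genes. β-CB1R-/- replicate 2 was the highest mouse for 13 of the 21, and the centred median of the list was −0.15, −0.11, −0.13 and −0.13 in β-CB1R+/+ mice and 0.0049, 0.44 and −0.054 in β-CB1R-/- mice. The share of all genes that were highest in replicate 2 is not given here. One of the 21 rose past limma's adjusted threshold, which 0.110% of all probes passed. Ehhadh, the peroxisomal bifunctional enzyme of fatty acid oxidation, measured −0.13, 0.02, 0.00 and 0.19 in β-CB1R+/+ mice and 1.33, 1.52 and 1.56 in β-CB1R-/- mice, a fold change of 2.73 and a log2 difference of 1.45 ± 0.18 (SE, adjusted p = 0.0439 by limma). Run after its value was seen, the alternatives fitted with limma gave a log2 difference of 1.27 to 1.52 and an adjusted p of 0.0104 to 0.409. The adjusted p was above the threshold with the deposited Z scores (0.0886), with no filter on dim probes (0.134), under the replicate block (0.409), by the methods' t test (no probe passed) and with any 1 of the 7 mice left out (0.114 to 0.319). Unlike most sterol branch genes, its 3 β-CB1R-/- values lay close together. The groups did not overlap in 2 of the 21 genes, against 4.82% of all genes, the other being Slc25a20, the carnitine carrier of the mitochondrial membrane, with a difference of 0.52.

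Of 12 genes of sterol transport, esterification and storage 10 had a higher mean in β-CB1R-/- mice, with a median of 0.22. Stard5, a sterol-binding carrier, and Nceh1, a cholesterol ester hydrolase, differed by 0.56 and 0.40, and were the 2 of the 12 whose groups did not overlap, against 4.82% of all genes. Of 19 fatty acid activation and glycerolipid genes 11 were higher and 8 lower, with a median of 0.11, and Gpat3 and Acsl5, the 2 of the 19 without overlap (4.82% over all genes), differed by 0.70 and 0.55. Of 9 genes of the LXR and sterol export list 3 were higher and 6 lower, with a median of −0.034, and the 14 other elongation and desaturation genes divided 7 to 7. Apart from Ehhadh, each gene of these lists had an adjusted p above the threshold.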
